A study of Mus musculus with 9 samples.

Results

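The genes described here are 9 genes of Golgi stacking and of endosome-to-Golgi retrieval: Gorasp1, Gorasp2 and Golga2, the retromer genes Vps35, Vps26a, Vps26b and Vps29, and the sorting nexin genes Snx1 and Snx2. They were named as a list, and each was represented by its brightest probe set that carries a single gene symbol. All 9 were measured, among 19938 genes in all, and each of the 9 had 1 such probe set, so no second probe set could be set beside a value. Gorasp2 and Vps35 were chosen by their log2 changes in these same arrays, Gorasp2 as lower with shApela_2 and not with shApela_1, and Vps35 as lower with shApela_1. Their values in those contrasts are therefore a description and carry no test. The cells were R1E, an embryonic stem cell line of the mouse, and their RNA was measured on Affymetrix arrays. Short hairpin RNAs had been delivered by lentivirus, and those of the knockdown groups target Apela, which encodes a secreted peptide ligand of the apelin receptor. The groups were hairpin 1 (shApela_1), hairpin 2 (shApela_2) and a control hairpin against luciferase (shLuc), with 3 arrays each. The medium of all groups held leukemia inhibitory factor (LIF) at 1000 units/ml, which keeps the cells undifferentiated, and 15% serum, and no drug treatment is named. Neither the source of the repeats (separate cultures, separate transductions or 1 culture) nor any cloning of transduced cells is given, so the p-values below cover the spread among arrays alone, which may be technical.

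The Golgi apparatus is a stack of flattened cisternae. The products of Gorasp1 and Gorasp2 sit on cis and on medial cisternae, respectively, and help to hold neighbouring cisternae together. The golgin encoded by Golga2 (GM130) anchors the Gorasp1 product and tethers incoming vesicles. Retromer is a coat on endosomes that returns cargo to the trans-Golgi network and the cell surface instead of letting it reach the lysosome. Vps35 is its scaffold, to which Vps29 and 1 of the alternative arrestin-like subunits Vps26a or Vps26b bind, and Snx1 and Snx2 are membrane-bending sorting nexins that first became known as partners of this trimer.

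Apela was lower on all 6 knockdown arrays. It measured 9.76, 9.68 and 9.65 in shApela_1 and 9.79, 9.79 and 9.56 in shApela_2, against 11.40, 11.31 and 11.19 in shLuc (RMA log2 signal, the unit of all levels below, with changes as log2 differences). Against shLuc its level fell by 1.60 in shApela_1 (limma adjusted p = 0.000197) and fell by 1.58 in shApela_2 (limma adjusted p = 0.000219). The 16 embryonic stem cell markers all lay above the median probe set of the table (7.06), Pou5f1 at 12.05 and Nanog at 12.30 over all arrays, and the mean of each of 4 lists of markers of other cell types lay between 6.61 and 7.58 on every array. Of these, 6 of 10 fibroblast, 5 of 10 primitive endoderm, 5 of 10 trophectoderm and 3 of 9 neuroectoderm and mesoderm markers lay above the median probe set, among them Col1a1 (7.72), Gata4 (7.50) and Pax6 (7.82), while Cdx2 (5.89) lay below it. The third shApela_2 array stood apart from the other 8, with a median of 7.12 against 7.03 to 7.07 and an interquartile range of 3.29 against 3.50 to 3.59. For larger changes with shApela_2 that moved when this array was left out, that value is also given, except for genes compared by profile. That refit keeps the third arrays of shLuc and shApela_1. Any difference shared by arrays of equal number would then no longer cancel, and whether there is one is not settled.

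Gorasp2 was lower in shApela_2 and near its shLuc level in shApela_1. It measured 10.15, 10.18 and 10.12 in shApela_2, against 10.78, 10.82 and 10.84 in shLuc. In shApela_1 it measured 10.80, 10.84 and 10.83. All 3 shApela_2 arrays lay well below the other 6, and the arrays of shApela_1 and shLuc overlapped. The change with shApela_2 was -0.67 (SE 0.04), which left 63.0% of the shLuc signal, and the change with shApela_1 was 0.01 (SE 0.04, 95% interval from -0.07 to 0.09). Between arrays of equal replicate number, the difference of shApela_2 from shLuc was -0.64, -0.64 and -0.73. Replicates of Gorasp2 varied little, with a pooled SD of 0.03 within groups where the median gene had 0.08. As Gorasp2 was chosen from these same arrays, this SD is no independent measure of its precision. Without the third shApela_2 array the change was -0.65. In bulk RNA such a difference can come from fewer cells with the transcript or from less of it per cell, which cannot be told apart.

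Gorasp1, the paralogue of Gorasp2, was not called with either hairpin, a call being an adjusted p under 0.05. It measured 8.26, 8.27 and 8.20 in shApela_1 and 8.34, 8.27 and 8.32 in shApela_2, against 8.17, 8.29 and 8.22 in shLuc. The 3 groups overlapped. Its change was 0.01 with shApela_1 (95% interval from -0.09 to 0.11, limma adjusted p = 1) and 0.08 with shApela_2 (from -0.02 to 0.18, adjusted p = 0.68).

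Golga2 differed by less than the spread between its replicates. It measured 8.05, 8.05 and 8.13 in shApela_1 and 8.03, 8.07 and 8.01 in shApela_2, against 8.05, 8.19 and 7.99 in shLuc. The change was 0.00 with shApela_1 (95% interval from -0.13 to 0.13, adjusted p = 1) and -0.04 with shApela_2 (from -0.17 to 0.09, adjusted p = 0.811). Of the genes of Golgi stacking, Gorasp2 was the one whose groups stood apart, which follows from its choice.

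**Figure D1:**
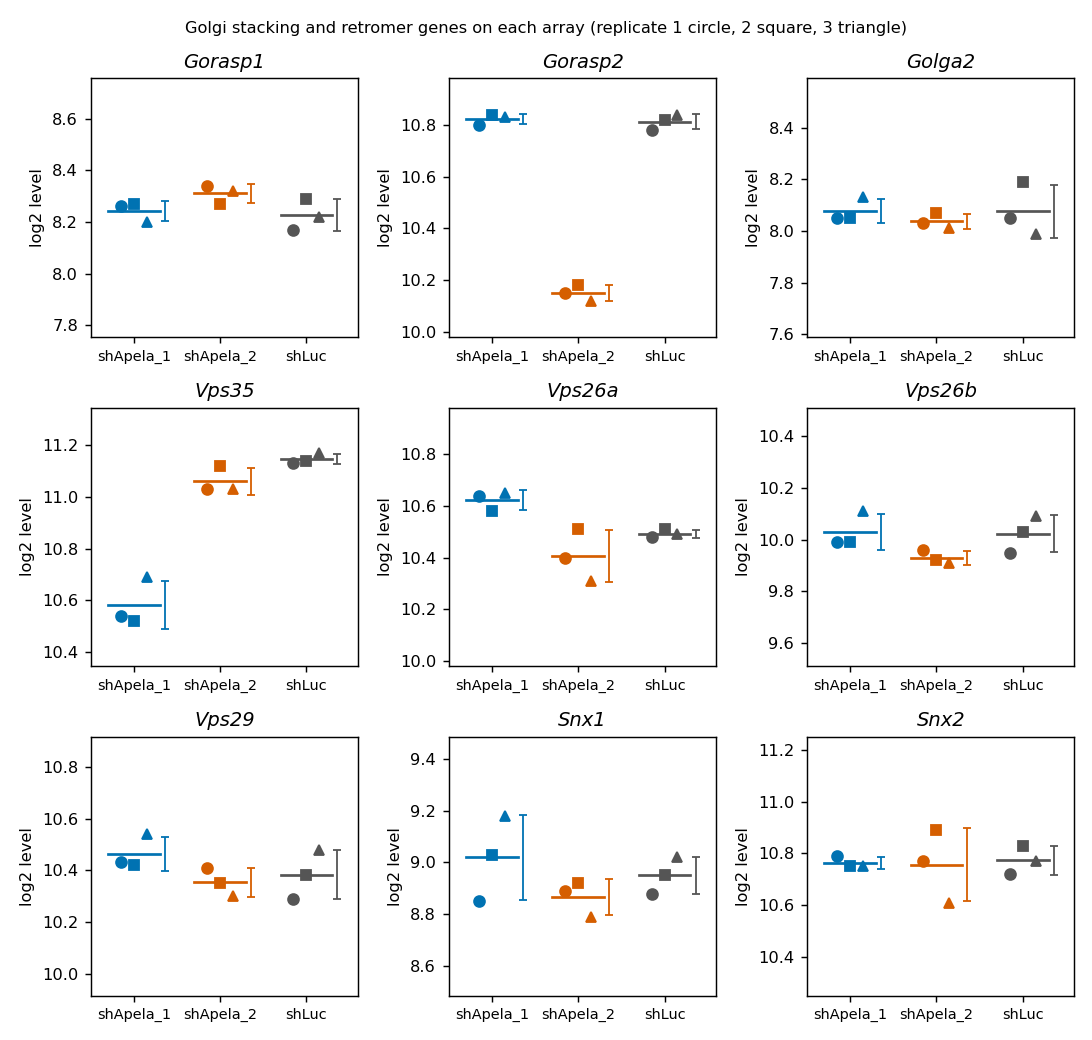
Log2 level (vertical axes, each spanning 1 log2 unit) of the 9 genes on the 9 arrays, by group, with the replicate number shown by the symbol, the group mean as a horizontal line and the SD (n = 3) as a bar. Gorasp2 is low on the 3 shApela_2 arrays (10.12 to 10.18) and Vps35 on the 3 shApela_1 arrays (10.52 to 10.69), while groups of the other genes lie close together.

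Vps35, the scaffold of retromer, was lower in shApela_1. It measured 10.54, 10.52 and 10.69 in shApela_1, against 11.13, 11.14 and 11.17 in shLuc. In shApela_2 it measured 11.03, 11.12 and 11.03. The 3 shApela_1 arrays lay below the other 6, and the shApela_2 arrays lay below those of shLuc by a small margin. The change with shApela_1 was -0.56 (SE 0.05), which left 67.7% of the shLuc signal, with differences of -0.59, -0.62 and -0.48 between arrays of equal number. Without the second shLuc array it was -0.57, without the first shApela_1 array -0.54 and without the second -0.53, and Vps35 was then not past the threshold of 0.05. With shApela_2 the change was -0.08 (SE 0.05, 95% interval from -0.21 to 0.04), and it did not pass the test (adjusted p = 0.68). Protein was not measured.

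Markers of trophectoderm, the outer layer of the blastocyst, also averaged lower on the arrays where Vps35 was low, but none of them passed the test. The mean log2 level of 10 such markers ranged from 7.19 to 7.42 over the shApela_1 arrays and from 7.42 to 7.54 over those of shApela_2, against 7.43 to 7.58 in shLuc. Of the 10, 9 lay below the shLuc mean in shApela_1, where 45.5% of all genes did, and 5 lay above the median probe set over all arrays. Krt8 had the smallest p of the 10 (-0.49, limma adjusted p = 0.335). Embryonic stem cell markers were slightly low there as well, with 12 of 16 below the shLuc mean in shApela_1 and 0 past the threshold. Their mean level ranged from 11.25 to 11.27 over the shApela_1 arrays and from 11.23 to 11.34 over those of shApela_2, against 11.29 to 11.32 in shLuc. In shApela_1, 7 of 10 fibroblast, 5 of 10 primitive endoderm and 5 of 9 neuroectoderm and mesoderm markers lay below the shLuc mean. The part of any of these lists in the Vps35 values was not tested.

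Vps26a, an arrestin-like subunit, was higher in shApela_1 on all 3 arrays, without passing the test. It measured 10.64, 10.58 and 10.65 in shApela_1 and 10.40, 10.51 and 10.31 in shApela_2, against 10.48, 10.51 and 10.49 in shLuc. All 3 shApela_1 arrays lay above the other 6. The change was 0.13 with shApela_1 (95% interval from 0.01 to 0.25, adjusted p = 0.59) and -0.09 with shApela_2 (from -0.21 to 0.03, adjusted p = 0.68). The change with shApela_2 was -0.04 without the third shApela_2 array.

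Vps26b, whose product takes the same place in the trimer, measured 9.99, 9.99 and 10.11 in shApela_1 and 9.96, 9.92 and 9.91 in shApela_2, against 9.95, 10.03 and 10.09 in shLuc. Both hairpin groups overlapped with shLuc, and the change was 0.01 with shApela_1 (adjusted p = 1) and -0.09 with shApela_2 (95% interval from -0.21 to 0.02, adjusted p = 0.68).

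Vps29, the small subunit that binds regulators of the coat, measured 10.43, 10.42 and 10.54 in shApela_1 and 10.41, 10.35 and 10.30 in shApela_2, against 10.29, 10.38 and 10.48 in shLuc. Its change was 0.08 (95% interval from -0.05 to 0.21, adjusted p = 0.968) and -0.03 (from -0.16 to 0.10, adjusted p = 0.871) with hairpins 1 and 2. The groups overlapped with shLuc in both cases. In shApela_1, where Vps35 was low, the means of Vps26a, Vps26b and Vps29 thus lay at or above those of shLuc.

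Snx1 had the widest spread of the 9 genes, with a pooled SD of 0.11. It measured 8.85, 9.03 and 9.18 in shApela_1 and 8.89, 8.92 and 8.79 in shApela_2, against 8.88, 8.95 and 9.02 in shLuc. The change was 0.07 with shApela_1 (95% interval from -0.11 to 0.26, adjusted p = 1) and -0.08 with shApela_2 (from -0.26 to 0.11, adjusted p = 0.747), and -0.04 without the third shApela_2 array.

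Snx2 measured 10.79, 10.75 and 10.75 in shApela_1 and 10.77, 10.89 and 10.61 in shApela_2, against 10.72, 10.83 and 10.77 in shLuc. The shApela_2 arrays spanned all the others. The changes were -0.01 (95% interval from -0.16 to 0.14, adjusted p = 1) and -0.02 (from -0.17 to 0.13, adjusted p = 0.937) with hairpins 1 and 2, and the change with shApela_2 was 0.05 without the third shApela_2 array. For both sorting nexins the groups overlapped in every comparison.

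**Figure D2:**
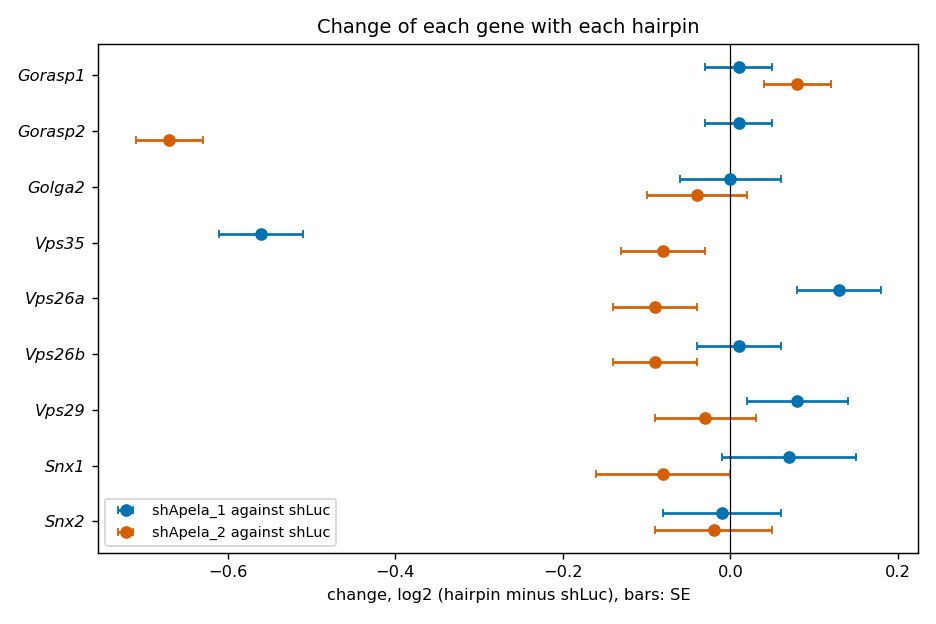
Change of each gene (horizontal axis, log2, hairpin minus shLuc) with shApela_1 and with shApela_2, with limma's SE as bars. Vps35 stands at -0.56 with shApela_1 and Gorasp2 at -0.67 with shApela_2, the values for which they were chosen, and the other 16 changes lie between -0.09 and 0.13.

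Counted over the list, 1 of the 9 genes was past the threshold with shApela_1, Vps35, where 0.336% of all genes were (67 genes, and 190 in the fit blocked on replicate number), and 1 with shApela_2, Gorasp2, where 0.015% were. Both were chosen for this, so nothing can be read from these counts. Groups did not overlap with shLuc for 2 of 9 genes with shApela_1 (13.7% of all genes) and for 2 of 9 with shApela_2 (10.3%), and each pair holds the gene chosen for that hairpin. The median change of the 9 was 0.01 with shApela_1 and -0.08 with shApela_2, against 0.01 and 0.02 over all genes. With shApela_1, 2 of the 9 lay below the shLuc mean, where 45.5% of all genes did. With shApela_2, 8 of the 9 lay below it, the chosen Gorasp2 among them, where 42.4% of all genes did. Of genes at or above the median probe set, as all 9 are, 61.9% did, with a median change of -0.02. Without the third shApela_2 array 7 of the 9 did, where 46.8% of all genes and 51.1% of those brighter genes did. The 2 comparisons share the shLuc arrays.

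The hairpins were also set against each other. Gorasp2 differed by -0.68 (shApela_2 minus shApela_1, SE 0.04) and Vps35 by 0.48 (SE 0.05), which follows from their choice. Both were past the threshold, where 0.948% of all genes were (189 genes, and 653 when blocked). Next in size was Vps26a at -0.22 (SE 0.05, 95% interval from -0.34 to -0.10), with all 3 shApela_2 arrays below all 3 of shApela_1. It did not pass over all genes (adjusted p = 0.121), and without the third shApela_2 array it was -0.17 (adjusted p = 0.136). The groups also did not overlap for Vps26b (-0.10, adjusted p = 0.431) and Vps29 (-0.11, adjusted p = 0.46), which made 3 of the 7 genes that were not chosen for a change, beside 17.6% of all genes. Gorasp2 and Vps35, whose groups did not overlap either, were chosen from these arrays. Gorasp1 (0.07, adjusted p = 0.506), Golga2 (-0.04, adjusted p = 0.728), Snx1 (-0.15, adjusted p = 0.462) and Snx2 (-0.01, adjusted p = 0.968) overlapped. Of the 9 genes, 7 were lower in shApela_2, the chosen Gorasp2 among them. Of all genes 42.1% were, and of those at or above the median probe set 61.9%. Without the third shApela_2 array 6 of the 9 were, where 50.5% of all genes and 56.1% of the brighter ones were.

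The third shApela_2 array lay below the mean of its 2 fellow arrays for 8 of the 9 genes. The gap was -0.21 for Snx2, -0.14 for Vps26a, -0.12 for Snx1 and -0.08 for Vps29, and between -0.05 and -0.03 for Gorasp2, Golga2, Vps35 and Vps26b. For Gorasp1 it was 0.02. For Gorasp2 the gap was small beside a change of -0.67, whereas for Vps26a, Vps29, Snx1 and Snx2 it was larger than the change with shApela_2 itself.

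Direct partners of these proteins were named for their roles. Blzf1, the golgin that binds the Gorasp2 product, averaged 10.26 ± 0.06 in shApela_1 and 10.21 ± 0.03 in shApela_2, against 10.19 ± 0.04 in shLuc (SD, n = 3 each). Its change with shApela_2 was 0.02 (95% interval from -0.08 to 0.12, adjusted p = 0.862). For Tmed2, a p24 cargo receptor, the change with shApela_2 was -0.04 (adjusted p = 0.722). For Uso1, the vesicle tether that docks on GM130, it was 0.02 (adjusted p = 0.944), and for Rab1a, the GTPase that recruits it, 0.01 (adjusted p = 0.935). The partners of Gorasp2 and Golga2 thus lay near their shLuc levels in shApela_2.

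Among partners of Snx1 and Snx2, Snx5 was low where Vps35 was low. Its product pairs with Snx1 or Snx2 and recognises cargo. It measured 11.31, 11.34 and 11.53 in shApela_1 and 11.67, 11.75 and 11.72 in shApela_2, against 11.66, 11.72 and 11.78 in shLuc. The 3 shApela_1 arrays lay below the other 6. The change with shApela_1, -0.33 (SE 0.06), did not pass over all genes (adjusted p = 0.0926), but did in the fit blocked on replicate number (adjusted p = 0.0351), and was past the threshold in 2 of 17 alternatives (adjusted p from 0.00791 to 0.392). With shApela_2 it was -0.01 (adjusted p = 0.978).

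Snx6, the close relative of Snx5, was below shLuc on all 6 knockdown arrays. It measured 10.00, 9.99 and 10.10 in shApela_1 and 10.08, 10.08 and 9.97 in shApela_2, against 10.19, 10.25 and 10.20 in shLuc. Neither change passed, at -0.18 with shApela_1 (adjusted p = 0.231) and -0.17 with shApela_2 (adjusted p = 0.68, and a change of -0.13 without the third shApela_2 array). The 2 values share the shLuc arrays.

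Changes of other partners of retromer were at most 0.13 in size with shApela_1, and none passed. The value was 0.08 for Snx3 (adjusted p = 0.95), which helps to recruit the trimer to membranes, and 0.01 for Snx27 (adjusted p = 1), an adaptor for return to the cell surface. It was 0.05 for Rab7 (adjusted p = 1), the GTPase that brings retromer to endosomes, and 0.13 for Tbc1d5 (adjusted p = 0.962), which switches Rab7 off. With shApela_2 the values were -0.01, -0.10, -0.00 and -0.11 in that order, and none passed. The shApela_2 arrays of Snx27 all lay below those of shLuc (adjusted p = 0.68). Without the third shApela_2 array Snx27 was at -0.12 and Tbc1d5 at -0.04. Between the hairpins Tbc1d5 differed by -0.24 (adjusted p = 0.309), and its groups did not overlap.

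Of cargo receptors that retromer or its sorting nexins carry, Igf2r, the receptor for mannose 6-phosphate on lysosomal enzymes, had a change of -0.06 with shApela_1 (adjusted p = 1) and of -0.16 with shApela_2 (adjusted p = 0.68), or -0.08 without the third shApela_2 array. For the sorting receptor gene Sorl1 the values were 0.31 with shApela_1 (95% interval from -0.00 to 0.63, adjusted p = 0.66) and -0.01 with shApela_2 (adjusted p = 0.987), or 0.14 without that array. Sorl1 was lowest on the third array of shLuc (9.58) as of shApela_2 (9.46), and the refit keeps that shLuc array. For Sort1, another of that family, the values were -0.19 (adjusted p = 0.73) and -0.22 (adjusted p = 0.68), or -0.12 for shApela_2 without the third shApela_2 array.

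Across the pathway, 11 lists of Golgi and endosomal genes held 230 measured genes besides the 9. With shApela_1, 0 of the 230 were past the threshold in limma, against 0.336% of all genes, and 25 had an unadjusted p under 0.05 (10.9%, against 7.69% of all genes). Blocked on replicate number, 5 passed (2.17%, against 0.953% of all genes), and without the third shApela_2 array 3 did (1.3%, against 0.732%). The 5 were Golga7, Snx5, Slc2a1 and Npc1, which were lower, and Rab21, which was higher. With shApela_2, 0 passed as well in limma, against 0.015% of all genes, and 25 had an unadjusted p under 0.05 (10.9%, against 5.77% of all genes). Without that array 0 passed too, with 22 at an unadjusted p under 0.05 (9.57%, against 5.12%), and blocked, Nsf alone did. The median change of the 230 was 0.02 with shApela_1 and -0.05 with shApela_2, against 0.01 and 0.02 over all genes.

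Golga7, part of the enzyme that attaches palmitate to Ras, led the list of Golgi matrix and golgins with shApela_1. It measured 9.98, 9.95 and 10.02 in shApela_1 and 10.30, 10.30 and 10.15 in shApela_2, against 10.33, 10.28 and 10.26 in shLuc. The change with shApela_1, -0.31 (SE 0.05), lay just short of the threshold (adjusted p = 0.053), and was past it in 6 of 17 alternatives (adjusted p from 0.00165 to 0.261), among them the block (0.0472) and the fit without the third shApela_2 array (0.0109). The list of 21 genes had a median of 0.01 with shApela_1.

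Nsf, the ATPase that takes SNARE complexes apart after fusion and is needed to rebuild Golgi cisternae, was lowest where Gorasp2 was. It measured 9.94, 9.81 and 10.02 in shApela_2 and 10.21, 10.22 and 10.39 in shApela_1, against 10.32, 10.30 and 10.41 in shLuc. The 3 shApela_2 arrays lay below the other 6. The change with shApela_2 was -0.42 (SE 0.07, adjusted p = 0.212). It was past the threshold in 2 of 17 alternatives (adjusted p from 0.0224 to 0.864). Without the third shApela_2 array it was -0.47 and did not pass (adjusted p = 0.228). The difference between the hairpins was -0.35 (shApela_2 minus shApela_1, adjusted p = 0.0589), and it was past the threshold in 5 of 17 alternatives (adjusted p from 0.00249 to 0.184), among them the block (0.0108) and the fit without the third shApela_2 array (0.0456).

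Glucose transporter gene Slc2a1, whose product Snx27 and retromer return to the cell surface, measured 12.15, 12.32 and 12.31 in shApela_1 and 12.50, 12.57 and 12.56 in shApela_2, against 12.50, 12.59 and 12.58 in shLuc. The 3 shApela_1 arrays lay below the other 6. The change with shApela_1 was -0.30 (SE 0.05, adjusted p = 0.0757, and 0.0263 with the block), and it was past the threshold in 3 of 17 alternatives (adjusted p from 0.0212 to 0.305). Rabep1, an effector of the early endosomal GTPase Rab5, had a change of -0.34 with shApela_1 (adjusted p = 0.116), and Npc1, which exports cholesterol from lysosomes, of -0.30 (adjusted p = 0.197, 0.0412 with the block, and past the threshold in 2 of 17 alternatives).

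In the remaining lists, the gene with the smallest p with shApela_1 did not pass either. These were Stx6 (0.15, adjusted p = 0.414), a SNARE of the trans-Golgi network, B4galt3 (0.26, adjusted p = 0.18), the p24 gene Tmed4 (0.29, adjusted p = 0.117, 0.0458 without the third shApela_2 array, and past the threshold in 2 of 17 alternatives), Cog5 (-0.23, adjusted p = 0.574) of the COG tether, and Commd4 (0.13, adjusted p = 0.661). With shApela_2 they were the golgin Gcc2 (-0.19), Tmed5 (-0.17), Cog2 (-0.16), B4galt3 (-0.18), Snx6 (-0.17), Rab32 (0.26), Commd1 (-0.13), the Wnt carrier Wls (-0.31), Rab11a (-0.21) and the lysosomal enzyme gene Naglu (0.22), each with adjusted p = 0.68. Rab32 and Naglu, which were higher, lay below the median probe set (7.06). Rab32 averaged 6.58 in shApela_2 against 6.33 in shLuc, and Naglu 6.94 against 6.72. When the third shApela_2 array was left out, the change was -0.06 for Tmed5, -0.06 for Cog2, -0.08 for Commd1 and -0.13 for Rab11a. It was then -0.15 for Gcc2, -0.14 for B4galt3, -0.13 for Snx6, 0.20 for Rab32, -0.24 for Wls and 0.21 for Naglu.

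Between the hairpins, 2 of the 230 genes were past the threshold, both lower in shApela_2, a share (0.87%) close to that of all genes (0.948%). At an unadjusted p under 0.05 there were 58 (25.2%, against 12.9% of all genes). With the block 13 passed (5.65%, against 3.28% of all genes), and 6 without the third shApela_2 array (2.61%, against 1.11%). B4galt3, a galactosyltransferase of the Golgi, averaged 8.28 ± 0.08 in shApela_2 and 8.73 ± 0.07 in shApela_1 (-0.45, SE 0.06, adjusted p = 0.0175), with shLuc between them at 8.46 ± 0.09 (SD, n = 3 each). Rab21, an endosomal GTPase that binds the WASH complex, averaged 9.54 ± 0.06 in shApela_2 and 9.84 ± 0.03 in shApela_1 (-0.31, SE 0.04, adjusted p = 0.0178). It measured 9.83, 9.88 and 9.82 in shApela_1, against 9.63, 9.61 and 9.57 in shLuc, a change of 0.24 (adjusted p = 0.0757, 0.0443 with the block, 0.0394 without the third shApela_2 array, and past the threshold in 3 of 17 alternatives). The call for B4galt3 was lost when the first shApela_1 array was left out (adjusted p = 0.0836), or the second (0.0933), or the second shApela_2 array (0.0632). That for Rab21 was lost when any of the shApela_1 arrays was left out (adjusted p between 0.0542 and 0.103), or the first shApela_2 array (0.0633). Both calls were also lost with only the compared arrays, at an adjusted p of 0.0735 for B4galt3 and 0.0973 for Rab21. In the other 9 lists the gene with the smallest p did not pass: Golga7 (0.27, adjusted p = 0.0506), Nsf, Tmed4 (-0.31, adjusted p = 0.0619), Cog2 (-0.21, adjusted p = 0.342, and -0.10 without the third shApela_2 array), Snx5 (0.32, adjusted p = 0.0597), Commd6 (-0.34, adjusted p = 0.28, and -0.18 without the third shApela_2 array), Slc2a1 (0.28, adjusted p = 0.0534), Rabep1 (0.31, adjusted p = 0.0957) and Npc1 (0.37, adjusted p = 0.0668).

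The counts of genes below shLuc with shApela_2 moved without the array that stood apart in some lists and hardly in others. With shApela_2, 164 of the 230 genes (71.3%) lay below shLuc, against 42.4% of all genes and 61.9% of the 10646 genes at or above the median probe set. Without the third shApela_2 array, and with the third shLuc array kept, the shares were 53.5%, 46.8% and 51.1%. Golgi glycosylation enzymes had 20 of 22 genes below shLuc, with a median of -0.10, and 11 of 22 without that array, with a median of 0.00. For lysosomal hydrolases, a list that also holds membrane proteins such as Npc1, the count was 19 of 25 (median -0.05), and 6 of 25 (median 0.03) without it. For sorting nexins other than Snx1 and Snx2 it was 12 of 12 (median -0.06), and 10 of 12 (median -0.03) without it. Golgi matrix genes and golgins had 17 of 21 (median -0.08), and 10 of 21 (median 0.00) without it. The COG and GARP tethers had 10 of 11 (median -0.06), and 9 of 11 (median -0.02) without it, cargo of retromer 15 of 20 (median -0.06), and 14 of 20 (median -0.04), and Golgi SNAREs and Rabs 19 of 30 (median -0.03), and 18 of 30 (median -0.01). The COPI coat with its p24 receptors had 10 of 16 (median -0.01), and 6 of 16 (median 0.01) without it. Endosomal Rabs, tethers and coats had 22 of 37 (median -0.02), and 20 of 37 (median -0.01). The retriever and CCC complexes had 10 of 16 (median -0.03), and 9 of 16 (median -0.02). For the WASH complex and retromer regulators the count was 10 of 20 with and without it. The part of the array's narrower spread in these counts was not tested.

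With shApela_1, 82 of the 230 genes (35.7%) lay below shLuc, against 45.5% of all genes and 43.3% of those at or above the median probe set. Lysosomal hydrolases had the largest median of the 11 lists, 0.09, with 19 of 25 genes above shLuc, followed by Golgi glycosylation enzymes at 0.07, with 16 of 22 above. The COPI coat with its p24 receptors had a median of -0.00, and the other 8 lists lay between 0.01 and 0.04.

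**Figure D3:**
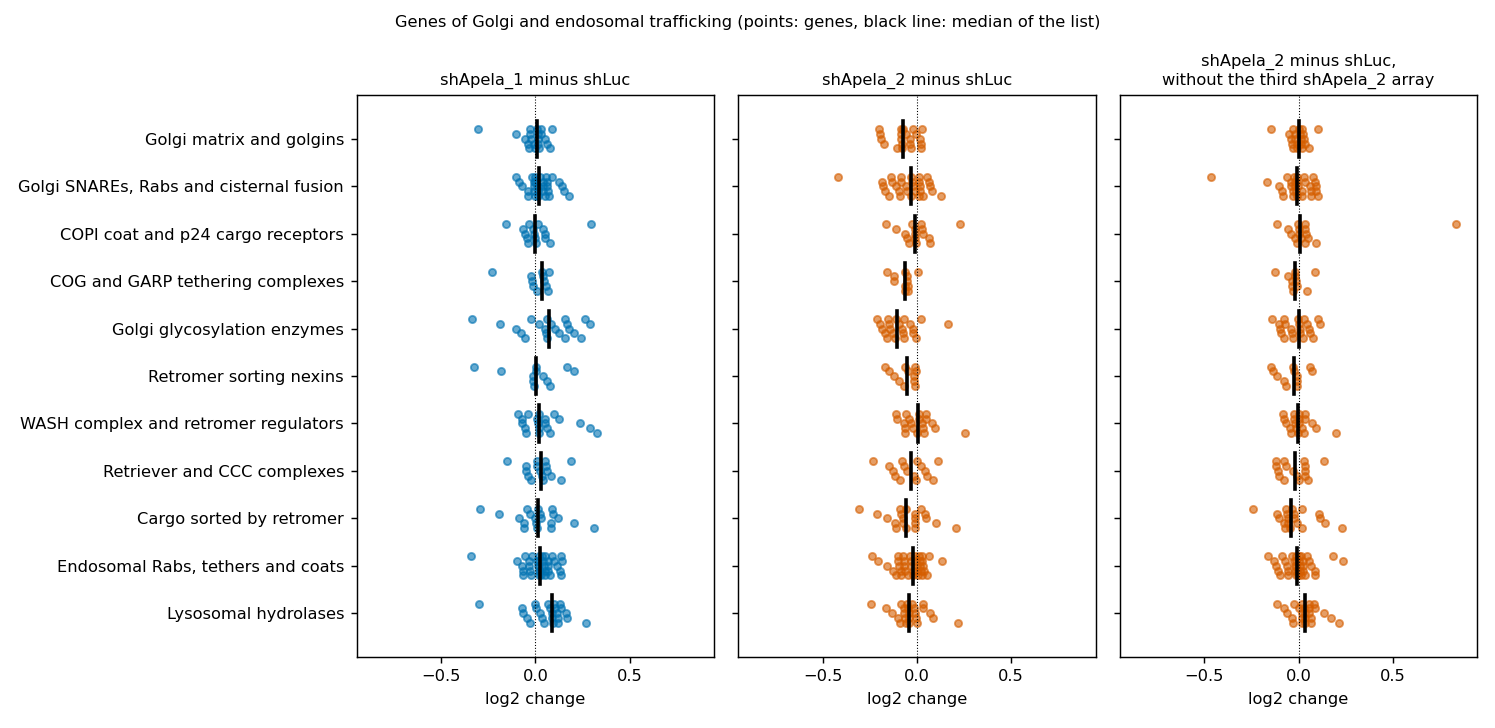
Log2 change (horizontal axes) of each gene of 11 Golgi and endosomal lists, as points, with the median of each list as a black line, for shApela_1 minus shLuc, shApela_2 minus shLuc, and shApela_2 minus shLuc without the third shApela_2 array. Medians lie between -0.00 and 0.09 with shApela_1, between -0.10 and 0.00 with shApela_2, and between -0.04 and 0.03 without that array. The third shLuc array is kept throughout.

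Profiles over the 9 arrays were compared by the root mean square difference between log2 values centred on the shLuc mean, among 10239 other named genes at or above the median probe set. Nearest to Gorasp2 were Mapre1, whose product binds the growing ends of microtubules (difference 0.11), Alg14, part of the enzyme that adds the second sugar of N-glycans (0.12), Lrrc58 (0.14), the reductase gene Cyb5r4 (0.14) and Casd1, a Golgi enzyme that acetylates sialic acid (0.14). Their changes with shApela_2 were -0.81, -0.63, -0.45, -0.47 and -0.46 in that order, and with shApela_1 -0.00, -0.09, 0.00, 0.06 and 0.07. The third shApela_2 array added to some of these. Relative to the shLuc mean, the shApela_2 arrays lay at -0.705, -0.763 and -0.973 for Mapre1. They lay at -0.361, -0.397 and -0.589 for Lrrc58, and at -0.421, -0.351 and -0.595 for Casd1. That array was also the lowest of its group for Cyb5r4, but not for Alg14. The profile of Gorasp2 itself lay 0.39 from a flat line.

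Nearest to Vps35 were Bdp1, a subunit of the RNA polymerase III initiation factor (0.05), the Rab-like GTPase gene Rabl6 (0.07), the hnRNP gene Raly (0.07), Mael of the germline piRNA pathway (0.07) and the helicase gene Dhx40 (0.08). Their changes were -0.51, -0.48, -0.50, -0.54 and -0.52 with shApela_1 and between -0.08 and -0.01 with shApela_2. The profile of Vps35 lay 0.33 from a flat line. The genes near Gorasp2 were thus low on the shApela_2 arrays and those near Vps35 on the shApela_1 arrays, as the measure asks. None of the 10 was a gene of the 11 trafficking lists.

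**Figure D4:**
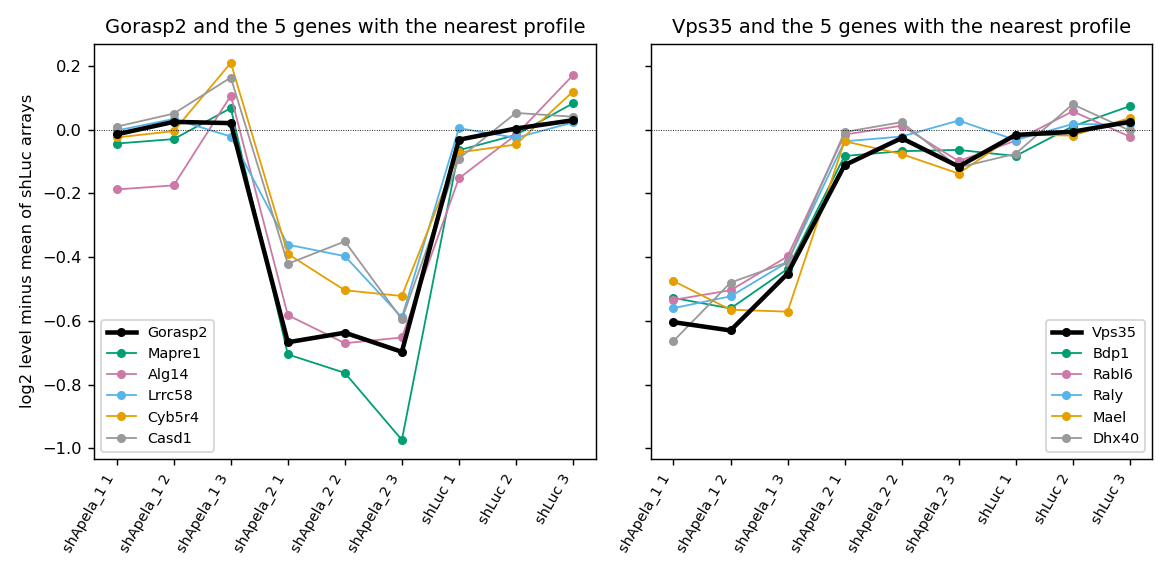
Log2 level minus the mean of the shLuc arrays (vertical axis) on each of the 9 arrays, for Gorasp2 and the 5 genes nearest to it (left) and for Vps35 and the 5 nearest to it (right), with the number after a group name giving the replicate. Gorasp2 and its neighbours are low on the 3 shApela_2 arrays, Vps35 and its neighbours on the 3 shApela_1 arrays.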

How the data were processed

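The deposited table holds log2 expression values for 28853 probe sets on 9 arrays, made by the authors with RMA in Partek 6.6, per the submitters' processing notes. The values span the range that base 2 gives, and no RMA settings are named there. Precision is limited by having 3 arrays per group. GEO's platform annotation gave 21775 probe sets 1 gene symbol, and the brightest per gene was kept (19938 genes). Genes were tested in 1 limma 3.58.1 fit of all arrays (R 4.3.3, two-sided, 6 residual degrees of freedom, 2.72 from the prior), with Benjamini-Hochberg adjustment over all genes and a threshold of 0.05, and the fit was tested on simulated data. Intervals are 95% intervals from this fit.

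The 9 genes, the lists and the tests were chosen with earlier results of these data known. Named genes are the 9, Apela, per list up to 4 past the threshold or the 1 with the smallest p, the 5 profiles nearest to Gorasp2 and to Vps35, and 13 partners added for their roles after the lists were made. For 10 list entries no single-symbol probe set was found.

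Replicate numbers were checked for pairing. Deviations from group means correlated at 0.44, 0.40 and 0.68 between shApela_1 and shLuc and at 0.18, 0.21 and 0.21 between shApela_2 and shApela_1. Between shApela_2 and shLuc they correlated at -0.01, 0.67 and 0.47. These values do not settle whether arrays of equal number belong together, and the labels do not say. The main fit used no block, so its p-values take no account of any pairing, and the block is given as an alternative. The fit was repeated without each array, on the compared arrays alone, with a block for replicate number, with array weights, after centring medians or a second quantile normalization, without dim genes, with averaged probe sets and with a trended, robust prior.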

Additional observations from a re-analysis of the deposited data

Results flagged for a closer look

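The hairpins differed in 4 of the genes named for this pathway, by the limma test of shApela_2 against shApela_1. Gorasp2 (-0.68, shApela_2 minus shApela_1) and Vps35 (0.48) were chosen for values from the same arrays, so their differences are no independent result. B4galt3 differed by -0.45 (adjusted p = 0.0175) and Rab21 by -0.31 (adjusted p = 0.0178). Both of these calls were lost with only the compared arrays (adjusted p = 0.0735 for B4galt3 and 0.0973 for Rab21) and without single arrays. For both shApela_1 lay above and shApela_2 below the shLuc mean. With groups of 3, single arrays were not tested for outlying values.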

How the results depend on the processing

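Each comparison was repeated under 17 alternatives, which gave 459 values for the 9 genes. Gorasp2 kept its direction and its call in all 17 for shApela_2 against shLuc (from -0.71 to -0.63) and for the difference between the hairpins (from -0.71 to -0.65). As Gorasp2 and Vps35 were chosen from these same arrays, which the refits reuse, calls kept here are no independent support. Vps35 kept its direction throughout (from -0.62 to -0.53 with shApela_1). It lost its call with shApela_1 without the second shLuc array or either of the first 2 shApela_1 arrays, and between the hairpins with only the compared arrays or without either of those shApela_1 arrays, 6 values in all. None of the other 7 genes passed under any alternative, and 26 of the 459 values, from changes near 0 that were not called, had the other sign. Leaving out 1 array left from 0 to 1 of the 9 genes past the threshold with shApela_1, 1 with shApela_2, and from 1 to 2 between the hairpins, where only the compared arrays gave 1.

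The count over all genes moved more. With shApela_1 it was 67, and became 37 with a trend and robust prior, 31 with centred medians, 688 with array weights, 190 with the replicate number as a block, 44 with only the compared arrays and from 3 (with the second shApela_1 array left out) to 146 (with the third shApela_2 array left out) without 1 array. With shApela_2 it was 3, and became 7 after a second quantile normalization, 23 with array weights, 8 with the replicate block and from 2 to 6 without 1 array. Between the hairpins it was 189, and became 1446 with array weights, 653 with the replicate block, 28 with only the compared arrays and from 19 (with the first shApela_1 array left out) to 222 (with the third shApela_2 array left out) without 1 array. The second quantile normalization turned 28 higher and 39 lower into 29 and 70 with shApela_1, and 71 and 118 into 134 and 120 between the hairpins, where centred medians gave 38 and 125. The cause was not tested. The block changed no call of the 9 genes. With shApela_2 the block brought Nsf past the threshold (adjusted p = 0.048).

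The 230 trafficking genes below shLuc with shApela_2 numbered 164, and 134 after a second quantile normalization, 202 with centred medians, 113 with array weights and from 123 to 180 without 1 array, and these alternatives were chosen after seeing the data.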

Other observations

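Copz2, which encodes a subunit of the COPI coat that buds vesicles from the Golgi, was low on the third array of every group, and was chosen after its values were seen. It measured 9.03, 8.76 and 7.73 in shApela_1 and 9.30, 9.46 and 7.56 in shApela_2, against 8.83, 9.04 and 7.78 in shLuc. Between arrays of equal number, the difference of shApela_2 from shLuc was 0.48, 0.42 and -0.22, so the third pair went the other way from the first and second.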
